A study of Mus musculus with 60 samples.

Results

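The Maf transcription factor family was followed in RNA-Seq of the mouse dentate gyrus (DG) through 5 genes, *Mafa*, *Maf*, *Mafg*, *Mafk* and *Maff*, of 46480 genes in the count files. The genes were listed by name, and the family was chosen by the measured dorsal to ventral difference. In it *Mafa* stood first among genes with TPM (a length-scaled level, explained below) over 1 in at least 3 samples. That difference is therefore described here and not tested. Male C57BL6J mice were weaned on day 22 into standard housing (SH) or into an enriched environment (EE), a large cage shared by many animals with toys and running wheels, and tissue was collected on day 80. Dorsal and ventral DG were punched from the same animals, so each housing gave a dorsal and a ventral group (4 groups in all), from mice with no labelled allele or drug. Each group held 5 samples, each a pool of tissue from several mice, and the samples of SH replicate 3 were left out of both regions, which left 4 SH pools, 5 EE pools and 18 samples.

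Maf proteins are basic leucine zipper factors that bind DNA as dimers. The large Mafs, encoded here by *Mafa* and *Maf*, carry an activation domain: *Mafa* is known for driving insulin transcription in pancreatic beta cells, and *Maf* (c-Maf) acts in lens fiber cells, macrophages and interneurons born in the medial ganglionic eminence. The small Mafs, encoded by *Mafg*, *Mafk* and *Maff*, lack an activation domain, and work as partners of the cap'n'collar factors (such as Nrf2) and of the Bach repressors at antioxidant response elements. *Nrl* encodes a further large Maf and served only for comparison.

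The members are spread over 4 chromosomes of mm10. *Mafa* (ENSMUSG00000047591.4) is a single-exon gene at chr15:75745490-75748228 on the minus strand, and *Maff* (ENSMUSG00000042622.12) lies on the plus strand of the same chromosome at chr15:79346621-79359076. *Maf* (ENSMUSG00000055435.6) is at chr8:115682942-115707794 on the minus strand and is overlapped by an antisense RNA gene, *Gm15655*. *Mafg* (ENSMUSG00000051510.12), at chr11:120625117-120633600 on the minus strand, overlaps *Sirt7* on the same strand, so reads in the shared stretch are uncertain between the pair. *Mafk* (ENSMUSG00000018143.9), at chr5:139791513-139802653 on the plus strand, overlaps *Tmem184a* on the opposite strand. Counting used strand, and opposite-strand fragments were 0.300% of those at *Maf*, 0.375% at *Mafg*, 0.223% at *Mafk*, 3.92% at *Mafa* and 15.0% at *Maff* over the 18 samples.

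RefSeq promoter windows were at hand for 3 of the 5 members (*Maff*, *Mafg* and *Mafk*, build GRCm38.p6). They are shown because the small Mafs are known as partners at the antioxidant response element, and because the cAMP response element (CRE, TGACGTCA) is a textbook feature of activity-induced promoters such as that of *Fos*, which rose in EE. Each run is the 250 bases before a start site, 5′ to 3′ on the gene's strand. Capitals mark the CRE in the window of *Maff* (the second of its 3 start sites, chr15:79347270-79347519, plus strand) and the antioxidant response element core, TGACNNNGC read on either strand, in those of *Mafg* (chr11:120633548-120633797, minus strand) and *Mafk* (chr5:139791286-139791535, plus strand).
Maff: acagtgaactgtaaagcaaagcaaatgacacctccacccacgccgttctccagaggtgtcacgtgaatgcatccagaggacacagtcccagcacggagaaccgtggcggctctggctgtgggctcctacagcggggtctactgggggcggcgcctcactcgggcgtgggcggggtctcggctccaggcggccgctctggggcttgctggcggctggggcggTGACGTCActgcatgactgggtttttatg
Mafg: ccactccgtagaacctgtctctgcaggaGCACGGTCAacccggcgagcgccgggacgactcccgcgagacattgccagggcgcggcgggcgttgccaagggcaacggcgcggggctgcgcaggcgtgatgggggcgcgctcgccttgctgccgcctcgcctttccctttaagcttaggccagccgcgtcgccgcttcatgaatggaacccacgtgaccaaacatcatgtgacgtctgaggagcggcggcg
Mafk: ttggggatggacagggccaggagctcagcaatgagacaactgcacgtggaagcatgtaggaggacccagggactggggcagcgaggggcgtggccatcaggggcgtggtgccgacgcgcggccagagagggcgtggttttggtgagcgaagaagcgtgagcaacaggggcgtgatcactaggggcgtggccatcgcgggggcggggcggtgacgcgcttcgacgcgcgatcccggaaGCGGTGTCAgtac
The CRE of *Maff* began 29 bases before its start site, and this word stood, on either strand, in 1.55% of 32851 such windows. The core in *Mafg* began 222 bases before the start and that in *Mafk* 13 bases before it, and the first start site of *Maff* held one at 112 bases. The core occurred in 10.2% of all windows, so it is a common word. The AP-1 site TGACTCA (4.46% of windows) was in none of the 5 windows of these 3 genes.

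The 18 libraries had 22919364 to 28301861 fragments counted on genes. All 5 members passed the filter of more than 10 counts in at least 2 samples, which 17040 genes passed. *Mafa* passed it only through its 9 dorsal samples. Levels are CPM, fragment counts scaled to a common library size by TMM normalization. TPM, a share of transcripts that takes length into account, is used to compare genes within a sample, and between groups only to show where the scale changes a direction. The RNAs *Rn7s1* and *Rn7s2* took 39.4% to 55.3% of TPM, and the median gene was shifted by -0.64 to 0.46 (log2) between the TPM and CPM scales of a sample. The 7 granule cell markers (such as *Prox1*, at 105.1 to 273.9 CPM) were present in every sample. Their summed level was higher in dorsal (1408 to 1680 CPM) than in ventral samples (648.7 to 947.6 CPM).

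Per transcript length, *Mafg* was the most abundant of the members in each of the 18 samples, at 4.65 to 8.21 TPM, and was a median of 4.42 times *Maf* and 4.17 times *Mafk* within a sample. *Maf* (0.76 to 2.19 TPM) and *Mafk* (1.12 to 1.92 TPM) could not be ordered, as *Maf* was above *Mafk* in 9 of 18 samples. *Maff* was low throughout (0.07 to 0.25 TPM). *Mafa* (0.84 to 1.76 TPM in dorsal and 0 to 0.07 TPM in ventral DG) was below *Maf* in each of the 18 samples and above *Mafk* in 1 of them. It was above *Maff* in 9 of 18 samples, all of them dorsal. The length used for *Mafa* in the deposited table was 1080 bases, 3 more than its 1077 coding bases without the stop codon, while its Gencode M21 exon is 2739 bases long.

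**Figure D1:**
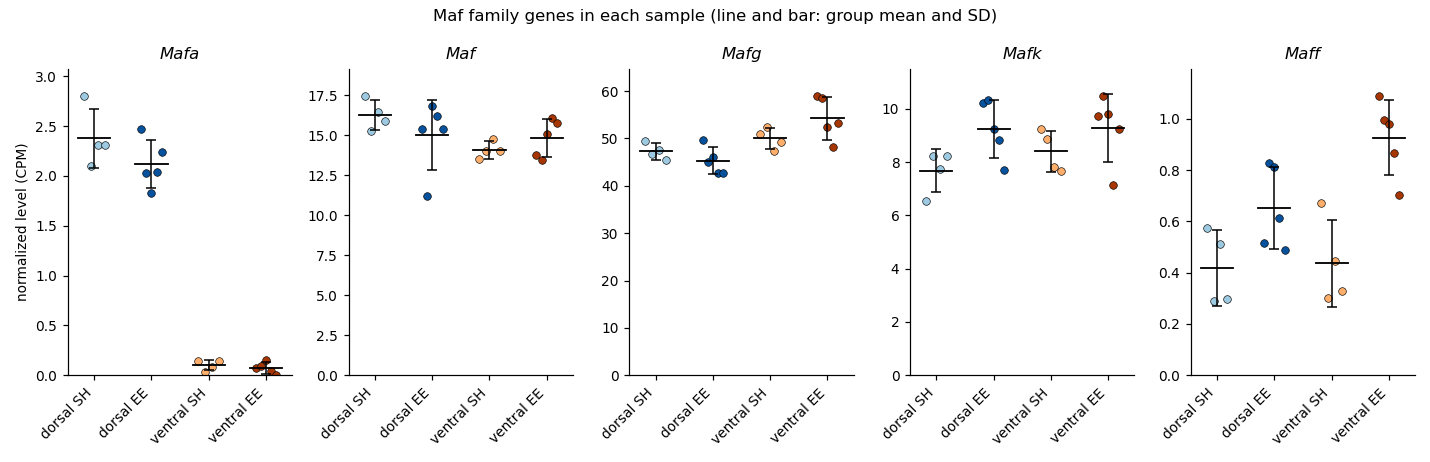
Level of each member (CPM after TMM, linear axes that start at 0 and differ between genes) in each of the 18 samples, with the mean (line) and SD (bar) of each group (n = 4 for SH and n = 5 for EE in each region). *Mafa* was at 1.83 to 2.80 CPM in dorsal and at most 0.157 CPM in ventral samples, and the 5 ventral EE samples of *Maff* lay above its 4 ventral SH samples.

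*Mafa* was high in dorsal DG and near 0 in ventral DG. Its counts were 78, 51, 54 and 62 in dorsal SH (replicates 1, 2, 4 and 5) and 67, 49, 45, 50 and 64 in dorsal EE. In ventral DG they were 4, 1, 2 and 4 in SH and 2, 2, 4, 1 and 0 in EE. Each dorsal sample thus held more than 10 times the counts of any ventral one. The dorsal means were 2.38 ± 0.297 CPM (SD, n = 4) for SH and 2.12 ± 0.242 CPM (n = 5) for EE. The ventral means were 0.102 ± 0.0519 CPM (n = 4) for SH and 0.0729 ± 0.0587 CPM (n = 5) for EE. The ventral EE sample with no count allows up to 3 counts, or 0.112 CPM, so ventral *Mafa* was at the limit of this depth.

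The fitted log2 difference between dorsal and ventral DG was 4.64 (SE 0.21), which was 4.47 (SE 0.29) in SH and 4.80 (SE 0.29) in EE. From counts summed over pools, the dorsal to ventral rate ratio was 23.0 in SH (exact 95% interval 12.7 to 46.8, counting error only) and 29.8 in EE (15.5 to 65.9). These intervals leave out the spread between pools and the choice of *Mafa* for this same difference, so they serve as description and not as a test. The next genes by dorsal excess, among those with TPM over 1 in at least 3 samples, were *Otos* at 3.34 (SE 0.19), *Cyp26b1*, which breaks down retinoic acid, at 2.97 (SE 0.09), and *Mylk3*, a myosin light chain kinase, at 2.59 (SE 0.11). In bulk tissue, fewer cells of a type and less RNA per cell cannot be told apart. Habenula and thalamus markers also moved with region: 6 of 10 tested were higher and 0 lower in dorsal DG (by quasi-likelihood, and likewise 6 by DESeq2 and by the likelihood ratio test). Beside this, 32.7% of all tested genes differed in either direction at the threshold given below. The summed level of the list was 170.9 to 270.3 CPM in dorsal and 116.6 to 155.9 CPM in ventral samples. Without *Prkcd*, a protein kinase C gene, the summed levels overlapped, at 97.5 to 170.0 CPM in dorsal and 103.4 to 138.4 CPM in ventral samples. Most of what remained was *Rora*, at 65.2 to 102.8 CPM in dorsal and 74.8 to 99.4 CPM in ventral samples. That sum thus shows little of the other markers. The parts of granule cells and of neighbouring tissue in the difference of *Mafa* were not tested.

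The other members had smaller differences between regions. Genes were called where the false discovery rate was below 0.05 with a change of 1.2-fold or more, and 1 of the 5 members, *Mafa*, met this between regions, beside 32.7% of all tested genes. Since this contrast chose the family, nothing is read from that count. *Maf* was at 17.4, 15.3, 16.4 and 15.9 CPM in dorsal SH and 15.4, 11.2, 16.8, 16.2 and 15.4 CPM in dorsal EE. It was at 13.5, 14.0, 14.8 and 14.0 CPM in ventral SH and 13.8, 13.5, 15.1, 16.1 and 15.8 CPM in ventral EE. All dorsal SH samples were above all ventral SH samples, while the EE ranges overlapped, and the log2 difference was 0.21 (SE 0.09) in SH and 0.02 (SE 0.08) in EE. The share of all tested genes whose SH samples separate by region was not computed.

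*Mafg* was at 49.6, 46.6, 47.5 and 45.4 CPM in dorsal SH and 51.0, 52.4, 47.3 and 49.2 CPM in ventral SH. In EE it was at 49.7, 45.1, 46.0, 42.7 and 42.7 CPM in dorsal and 58.8, 58.6, 52.3, 48.1 and 53.2 CPM in ventral samples. The dorsal and ventral ranges overlapped in both housings, but within the pools ventral *Mafg* was the higher in 8 of 9. Its log2 difference, dorsal minus ventral, was -0.17 (SE 0.04), with -0.08 (SE 0.06) in SH and -0.26 (SE 0.05) in EE, while on the deposited TPM scale the SH means ran the other way (6.83 in dorsal and 6.29 in ventral DG).

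*Mafk* was at 6.53, 8.23, 7.73 and 8.23 CPM in dorsal SH and 9.25, 8.87, 7.82 and 7.67 CPM in ventral SH. In EE it was at 10.2, 10.3, 9.23, 8.81 and 7.69 CPM in dorsal and 9.74, 10.5, 9.80, 7.13 and 9.23 CPM in ventral samples. All of its group ranges overlapped, and the log2 difference between regions was -0.07 (SE 0.08). On the TPM scale the dorsal means of *Mafk* were the higher, at 1.54 against 1.44 in SH and 1.55 against 1.38 in EE. *Maff*, with 7 to 28 counts per sample, had a log2 difference of -0.29 (SE 0.20), made of -0.06 (SE 0.31) in SH and -0.51 (SE 0.23) in EE. In TPM its SH means ran the other way (0.13 in dorsal and 0.11 in ventral DG).

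*Nrl*, named for its part in retinal rods, was at 0.870 to 1.34 CPM in dorsal and 1.66 to 2.39 CPM in ventral samples, with no overlap. Its list was chosen with earlier results of these data known, so the p below is no independent test. *Nrl* was called between regions, lower in dorsal DG (log2 difference -0.82, SE 0.10, quasi-likelihood test of edgeR, Benjamini-Hochberg adjusted p = 3.95e-07).

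**Figure D2:**
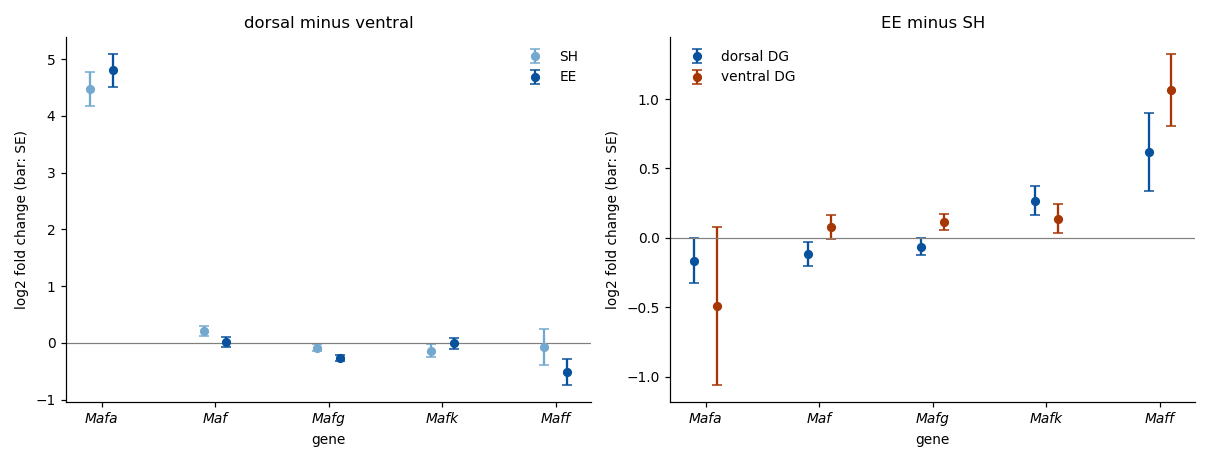
Log2 fold change of each member with its SE (bars), dorsal minus ventral in SH and in EE (left) and EE minus SH in dorsal and in ventral DG (right), from one edgeR fit. *Mafa* stood at 4.47 and 4.80 between regions, and *Maff* had the highest EE values, 0.62 in dorsal and 1.07 in ventral DG.

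EE against SH asked whether housing moved the same genes, a contrast that had no part in choosing them. No member was called in dorsal DG (0 of 5, beside 0.634% of all tested genes) or in ventral DG (0 of 5, beside 0.241%) by edgeR's quasi-likelihood test. At an unadjusted p under 0.05 there were 2 in dorsal (*Mafk* and *Maff*, beside 8.81% of all tested genes) and 1 in ventral DG (*Maff*, beside 7.58%). DESeq2 called 0 in each region, and the likelihood ratio test called 0 in dorsal and 1, *Maff*, in ventral DG.

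*Maff*, known as an immediate early small Maf in several tissues, had the highest EE values of the family. Its counts in ventral DG were 19, 8, 11 and 9 in SH and 28, 22, 25, 22 and 19 in EE. They correspond to 0.671, 0.301, 0.446 and 0.329 CPM in SH and 1.09, 0.996, 0.980, 0.866 and 0.704 CPM in EE, so all EE samples were above all SH samples. How many of all tested genes separate in this way was not computed. The means were 0.437 ± 0.168 (SD, n = 4) and 0.927 ± 0.147 CPM (n = 5), a log2 fold change of 1.07 (SE 0.26, 95% interval 0.51 to 1.63). After adjustment over 17040 genes this did not pass the quasi-likelihood test (edgeR adjusted p = 0.111). Over 19 settings of the fit the adjusted p ranged from 0.0133 to 0.356, and it was under 0.05 in 2 of them, the likelihood ratio test (0.0133) and the fit without SH replicate 1 (0.0353), the SH pool with the most *Maff* counts.

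In dorsal DG *Maff* had 16, 7, 12 and 8 counts in SH and 14, 20, 20, 15 and 14 in EE. In CPM, SH replicates 1 (0.574) and 4 (0.512) lay within the EE range (0.489 to 0.829) and the other SH samples below it. The means were 0.418 ± 0.147 CPM (n = 4) in SH and 0.652 ± 0.161 CPM (n = 5) in EE. The log2 fold change was 0.62 (SE 0.28, 95% interval 0.01 to 1.22, edgeR adjusted p = 0.531). With opposite-strand fragments added, the ventral log2 fold change was 0.87 (SE 0.24, adjusted p = 0.192). Of 6 endothelial markers, 0 were called in ventral DG by the quasi-likelihood test, DESeq2 or the likelihood ratio test, beside 0.241% of all tested genes. At an unadjusted p under 0.05 there were 3, beside 7.58% of all tested genes. The summed level of these markers was 163.9 to 197.1 CPM in ventral SH and 178.6 to 209.8 CPM in ventral EE. Their part in the values of *Maff* was not tested.

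For *Mafk*, the mean in dorsal DG was 7.68 ± 0.803 CPM in SH (n = 4) and 9.25 ± 1.08 CPM in EE (n = 5). The log2 fold change was 0.27 (SE 0.11, 95% interval 0.04 to 0.50, edgeR adjusted p = 0.416), and 1 EE sample, replicate 5 at 7.69 CPM, lay within the SH range. In ventral DG it was 0.14 (SE 0.11, interval -0.09 to 0.36, adjusted p = 0.813), from 8.40 ± 0.777 to 9.27 ± 1.28 CPM, and on the TPM scale the ventral means ran the other way (1.44 in SH and 1.38 in EE) and the dorsal ones were 1.54 and 1.55. *Mafg* had a log2 fold change of -0.06 in dorsal DG (SE 0.06, interval -0.19 to 0.06, edgeR adjusted p = 0.830) and of 0.12 in ventral DG (SE 0.06, interval -0.01 to 0.24, adjusted p = 0.674). On the TPM scale the ventral means of *Mafg* ran the other way (6.29 in SH and 5.95 in EE).

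The large Mafs were not called for EE either. *Maf* had a log2 fold change of -0.11 in dorsal DG (SE 0.09, interval -0.30 to 0.07, edgeR adjusted p = 0.772) and of 0.08 in ventral DG (SE 0.09, interval -0.11 to 0.26, adjusted p = 0.876). Its ventral means on the TPM scale ran the other way (1.335 in SH and 1.262 in EE). For *Mafa* in dorsal DG the log2 fold change was -0.16 (SE 0.16, interval -0.51 to 0.19, edgeR adjusted p = 0.845). In ventral DG, with 11 counts in all of SH and 9 in all of EE, the value of -0.49 had an interval from -1.71 to 0.73 (adjusted p = 0.888), so at this depth the counts allow any change within that interval.

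Whether EE moved the regions apart was asked in 2 ways. In the edgeR fit, the difference between the EE effects (dorsal minus ventral) was called for 0 of 5 members, beside 0.00587% of all tested genes, which was the single gene *Igfbp6* (2 genes and again 0 members with the pool of mice as a replicate block). By DESeq2 and the likelihood ratio test 0 members were called too, and 1, *Mafg*, had an unadjusted p under 0.05, beside 3.25% of all tested genes. The differences were 0.33 (SE 0.58) for *Mafa*, -0.19 (SE 0.12) for *Maf*, -0.18 (SE 0.08) for *Mafg*, 0.13 (SE 0.15) for *Mafk* and -0.45 (SE 0.39) for *Maff*, each with an edgeR adjusted p of 1.00.

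Within a pool, the dorsal to ventral log2 ratio of CPM compares tissue of the same mice. For *Mafg* it was -0.04, -0.17, 0.01 and -0.12 in the SH pools and -0.24, -0.38, -0.19, -0.17 and -0.32 in the EE pools. Each EE pool was thus below each SH pool, though the nearest pair (-0.169 in SH and -0.170 in EE) differed by less than 0.01. The means were -0.08 ± 0.08 (SD, n = 4) and -0.26 ± 0.09 (n = 5), a difference of -0.18 (two-sided exact permutation test, p = 0.0159, smallest possible p 0.00794). With SH replicate 3 included it was -0.12 (exact permutation p = 0.119). This p is 1 of 5 computed, 1 per member, and is not adjusted for that. After Benjamini-Hochberg adjustment for the 5 tests, none of the members, *Mafg* and *Maff* included, stayed under 0.05.

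For *Maff* the ratio was -0.20, -0.05, 0.17 and -0.11 in SH and -0.97, -0.24, -0.25, -0.45 and -0.46 in EE. All EE pools were again below all SH pools, at -0.48 ± 0.30 (n = 5) against -0.05 ± 0.16 (n = 4), a difference of -0.43 (exact permutation p = 0.0238, unadjusted and likewise not under 0.05 once adjusted). The share of all tested genes with pools as fully apart was not computed, so nothing is read from this for *Mafg* or *Maff*. *Maf* had 0.37, 0.12, 0.15 and 0.18 in SH and 0.16, -0.26, 0.16, 0.01 and -0.03 in EE, a difference of -0.20 (exact permutation p = 0.0952). The SH and EE pools of *Maf* overlapped. *Mafk* (difference 0.13, exact permutation p = 0.444) and *Mafa* (0.14, p = 0.722) had overlapping pools as well. For *Mafa* the ratio was 3.02 to 4.90 in the 9 pools. A prior count of 2 was added before the log, which lowers such ratios where counts are low.

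**Figure D3:**
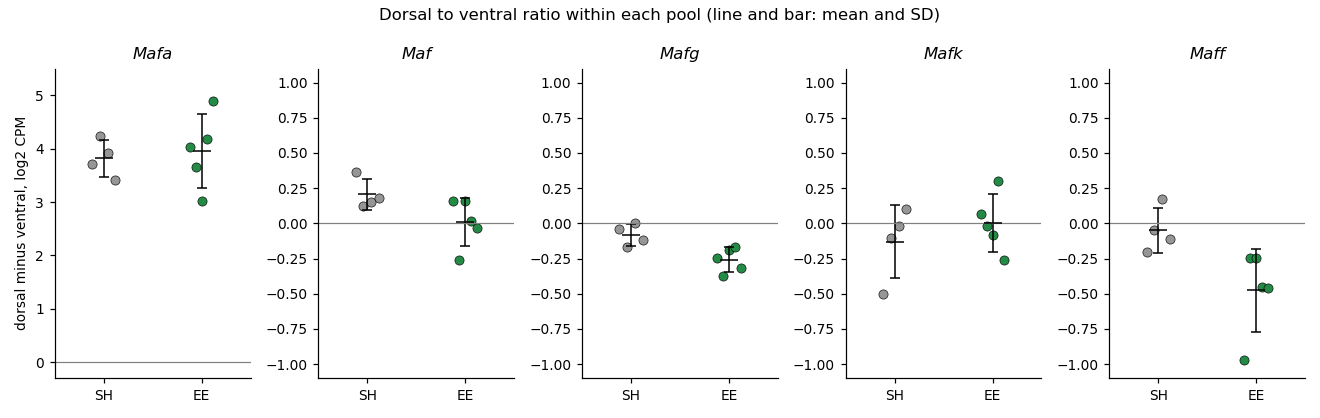
Dorsal minus ventral log2 CPM (prior count of 2) of each member within each pool, 4 SH and 5 EE pools, with mean and SD; the axis of *Mafa* differs from the others. All 9 pools of *Mafa* lay at 3.02 or above, and all EE pools of *Mafg* and *Maff* lay below 0 and below the SH pools. The share of all tested genes with pools so separated was not computed.

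The partners of the small Mafs at antioxidant response elements were not called for EE. Of 7 cap'n'collar, Bach and Keap1 genes, 6 were tested (*Nfe2*, an erythroid partner, was not). In EE 0 of the 6 were called in either region by the quasi-likelihood test, DESeq2 or the likelihood ratio test, with 0 at an unadjusted p under 0.05, and their median log2 fold change was -0.01 in dorsal and 0.02 in ventral DG, where all tested genes had medians of -0.0034 and -0.00018. Of all tested genes, 0.634% were called in dorsal and 0.241% in ventral DG, and 8.81% and 7.58% had such an unadjusted p. *Nfe2l2*, which encodes Nrf2, was at 16.99 to 19.26 CPM over the 18 samples. Between regions 1 of the 6 was called, beside 32.7% of all tested genes. It was the repressor *Bach1*, higher in dorsal DG by 0.28 (SE 0.04, edgeR adjusted p = 3.41e-06).

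Of 22 antioxidant response genes, 21 were tested. In dorsal DG 1 of the 21 was called for EE, beside 0.634% of all tested genes. This was *Hmox1*, which encodes heme oxygenase. It rose from 4.19 ± 0.245 (SD, n = 4) to 5.72 ± 0.166 CPM (n = 5), a log2 fold change of 0.44 (SE 0.08, edgeR adjusted p = 0.00735). All dorsal EE samples (5.61 to 6.01 CPM) were above all dorsal SH samples (3.89 to 4.48 CPM). In ventral DG 0 of 21 were called, beside 0.241% of all tested genes (likewise 0 by DESeq2 and the likelihood ratio test). At an unadjusted p under 0.05 there were 2, beside 7.58% of all tested genes. There *Hmox1* had a log2 fold change of 0.10 (SE 0.09). The list's median was -0.01 in dorsal and 0.01 in ventral DG. Between regions 2 were higher and 5 lower in dorsal DG, 7 of 21 beside 32.7% of all tested genes, with a median of -0.14, beside -0.0046 for all tested genes. That share is near the one over all genes. *Hmox1* (0.32) and *Txnrd1* (0.27), thioredoxin reductase, were the higher ones. *Me1*, malic enzyme, was lower by the most (-0.67), before *Gsta4* (-0.62), a glutathione transferase, and *Nqo1* (-0.35), a quinone reductase (edgeR adjusted p of at most 0.00037 for these 5). Promoter windows were found for 17 of the 22 genes, and 4 of them (*G6pdx*, *Gclm*, *Prdx1* and *Txnrd1*) held the TGACNNNGC core shown for *Mafg* and *Mafk*.

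Fos and Jun proteins are basic leucine zipper factors that can also dimerize with Maf proteins. Of 7 such genes 6 were tested (*Fosl1* was not). In each region 4 of the 6 rose in EE, beside 0.634% of all tested genes called in dorsal and 0.241% in ventral DG. The medians were 0.35 in dorsal and 0.41 in ventral DG, where all tested genes had -0.0034 and -0.00018. *Fos* rose from 6.92 ± 1.46 to 11.7 ± 1.25 CPM in dorsal DG, a log2 fold change of 0.76 (SE 0.12, edgeR adjusted p = 0.00168). In ventral DG it rose from 3.70 ± 0.652 to 8.91 ± 0.647 CPM, by 1.26 (SE 0.13, adjusted p = 2.25e-05). *Fosb* rose by 0.67 (SE 0.13) and 1.05 (SE 0.13), *Fosl2* by 0.38 (SE 0.06) and 0.43 (SE 0.06), and *Junb* by 0.33 (SE 0.07) and 0.38 (SE 0.08), in dorsal and ventral DG. The values of *Maff*, 0.62 (SE 0.28) and 1.07 (SE 0.26), were near those of *Fosb* with larger errors. *Maff* had 43 counts in all of dorsal SH, where *Fosb* had 355.

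**Figure D4:**
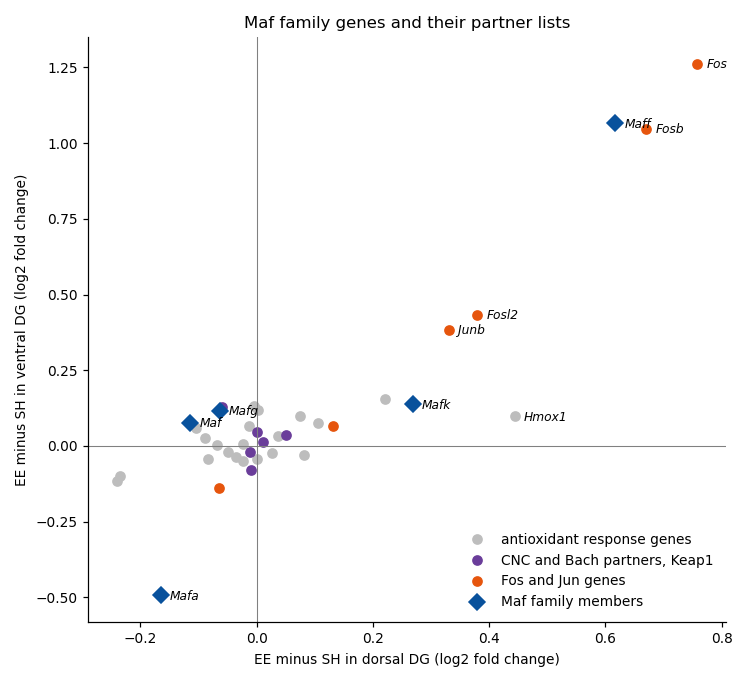
Log2 fold change of EE against SH in dorsal (horizontal) and ventral DG (vertical) for the 5 members (diamonds) and the tested genes of the 3 partner lists (circles). *Maff* (0.62, 1.07) lay near *Fosb* (0.67, 1.05), the other members within 0.5 of 0 on both axes, and *Hmox1* at 0.44 and 0.10.

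Genes that large Mafs work with or switch on in beta cells and lens were also read, as background to *Mafa*. Of 22, 10 had too few counts to be tested, among them *Ins1*, *Ins2* and *Pdx1*. Of the 12 tested, 3 were higher and 4 lower in dorsal DG, 7 of 12 beside 32.7% of all tested genes, with a median of -0.20, beside -0.0046 for all tested genes. The higher ones were *Prox1* (0.94), also a granule cell factor, *Glis3* (0.40) and *Neurod1* (0.28). The lower ones included *Glp1r* (-2.47), the receptor of glucagon-like peptide 1, and *Pcsk1* (-0.73), a prohormone convertase (edgeR adjusted p of at most 0.0017 for these 5). *Glp1r* was thus opposite to *Mafa*, at 0.470 to 0.861 CPM in dorsal and 2.99 to 4.45 CPM in ventral samples. For EE 0 of 12 were called in either region by the 3 tools, beside 0.634% of all tested genes in dorsal and 0.241% in ventral DG. At an unadjusted p under 0.05 there were 1 in dorsal (beside 8.81% of all tested genes) and 3 in ventral DG (beside 7.58%).

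Genes with levels most like a member over the 18 samples were named by Pearson's r of log2 CPM, as a description, since the samples share regions and libraries. For *Mafa* they were *Prkcd* (r = 0.987), *Syt7* (0.983), *Orai2* (0.982), *Iyd* (0.981) and *Add2* (0.980). *Prkcd*, which encodes protein kinase C delta, was at 73.4 to 100.3 CPM in dorsal and 13.2 to 18.9 CPM in ventral samples. It is also one of the thalamus markers above, of which *Tcf7l2* (log2 difference 0.22, SE 0.14) and *Rora* (-0.06, SE 0.07) were not called between regions, while *Pou4f1* (3.58, SE 0.69) and *Gpr151* (2.23, SE 0.60), of the habenula, were. In the rest of that list, *Zic1*, *Slc17a6* and *Lef1* had higher means in dorsal DG in both housings. For *Zic1* they were 19.5 (SH) and 19.3 CPM (EE) in dorsal and 11.2 and 11.5 CPM in ventral DG. *Tac2* and *Gbx2* had higher means in dorsal DG only in EE. The genes most like *Maff* included *Klf2* (0.845), *Gimap6* (0.842), *Ppp1r37* (0.794) and *Ctla2a* (0.766). For *Mafg* they were *Msi2* (0.956), *Mindy2* (0.947), *Ntrk2* (0.945), *Brsk1* (0.944) and *Ptprt* (0.944). *Mob1b* (0.889), *Kctd12*, *Vcpip1*, *Naa50* and *AW549877* (0.860) came first for *Maf*, and *Jcad* (0.808), *Sbk1*, *Fcgr3*, *Parp6* and *Gpt2* (0.783) for *Mafk*.

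Markers of cells known to use *Maf* were read beside it. Of 10 microglia and macrophage markers 0 were higher and 1, *Aif1*, was lower in dorsal DG (-0.27, SE 0.11), and their summed level was 470.9 to 550.0 CPM over the 4 groups. Of 9 markers of interneurons from the medial ganglionic eminence 1 was higher in dorsal DG (*Npy*) and 3 lower (*Sst*, *Pvalb* and *Sox6*), with summed levels of 534.1 to 670.4 CPM, and 1, *Npy*, rose in EE in both regions (0.60 and 0.40). Of the other marker lists, 6 of 7 granule cell genes and 3 of 9 CA pyramidal genes were higher in dorsal DG. Ventral DG was higher for all 8 choroid plexus genes, 3 of 6 astrocyte genes, 3 of 9 CA pyramidal genes and 2 of 6 mossy cell genes. These counts between regions, those of microglia and interneurons included, stand beside 32.7% of all tested genes. The mossy cell share is near that one. For EE, 0.634% of all tested genes were called in dorsal and 0.241% in ventral DG. Between regions, oligodendrocyte and endothelial genes had 0 of 6 called each by the 3 tools, with 2 and 3 at an unadjusted p under 0.05. The share of all tested genes under that p between regions was not computed. The part of these cell types in the values of the members was not tested.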

How the data were processed

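RNA-Seq of 20 samples was used. The 40 samples of methylation sequencing are not analysed here. The authors trimmed paired reads (Trim Galore 0.4.0), aligned them to mm10 with STAR 2.5.1b and deposited a count of fragments per gene, without normalization. The authors also deposited an expected count, TPM and FPKM per gene (RSEM 1.2.30), of which FPKM was not used. Gencode M21 named 45968 of 46480 genes. SH replicate 3 was left out because the study excluded an SH sample for *Xist*. That it is this one rests on its *Xist* counts, 789 and 308, against at most 16 in the 18 samples kept.

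Reverse-strand counts were tested with TMM normalization and the quasi-likelihood test of edgeR 4.0.16 (R 4.3.3) in one model of the 4 groups, with p-values adjusted by the Benjamini-Hochberg method over 17040 genes (over 10 counts in 2 or more samples). Region values are the mean of the SH and EE differences. Intervals use the SE and the residual degrees of freedom. Where ranges or pools did not overlap, the share over all tested genes was not computed. Depth was 22919364 to 28301861 fragments, so genes of about 10 counts are imprecise.

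Dorsal and ventral samples of one pool come from the same mice by the study's legend, and their deviations from group means had a mean correlation of 0.083 (-0.084 to 0.189, 9 pools). The members and gene lists were chosen with earlier results of these data known. Named genes were the 5 members, up to 3 called genes with the largest rise and fall of each list and comparison, the 3 genes next to *Mafa* and the 5 genes most alike for each member. *Junb*, *Nfe2l2*, *Tcf7l2*, *Rora*, *Zic1*, *Slc17a6*, *Lef1*, *Tac2*, *Gbx2* and *Igfbp6* were named after their values were seen. Some results that the rule covers are not reported here. Alternatives were DESeq2 1.42.0, the likelihood ratio test, RLE size factors, other filters, all 20 samples, rounded expected counts, unstranded counts, a replicate block and fits without each pool (those of pool ratios were added after the data were seen). The procedure was tested on simulated data.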

Additional observations from a re-analysis of the deposited data

Results flagged for a closer look

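*Maf* in dorsal EE replicate 2 was at 11.2 CPM (271 counts), far below the other 4 dorsal EE samples, at 15.4 to 16.8 CPM. Its gap to the nearest sample, as a share of the group's range, passed Dixon's 95% limit. Without EE replicate 2, the dorsal EE against SH log2 fold change of *Maf* was -0.03, against -0.11 with it. Of 20 groups of samples looked at in this way (5 members in 4 groups), 1 passed, and chance alone flags about 1 in 20.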

How the results depend on the processing

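The members' dorsal to ventral values and EE values kept their direction in every fit run, except as given here. Leaving out SH replicate 1 made *Maff* in ventral DG pass the threshold, so the members called there were 0 to 1 over fits without 1 pool, and 1 by the likelihood ratio test. Without EE replicate 5, the difference between the EE effects of *Mafa* was -0.017 (range over pools left out -0.017 to 0.858) and its EE minus SH difference of pool ratios -0.098 (-0.098 to 0.370), and with all 20 samples the latter was -0.041. That of *Mafg* was -0.12 with all 20 samples (exact permutation p = 0.119) and -0.21 to -0.15 over pools left out; those of *Maf*, *Mafk* and *Maff* were -0.24 to -0.13, 0.01 to 0.21 and -0.49 to -0.30.

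Over all genes, 3448 were called between regions with TPM over 1 in 3 samples, against 5573 (5162 to 5607 without 1 pool). For EE in dorsal DG 108 were called, 181 by the likelihood ratio test and 70 to 109 without 1 pool (70 without SH replicate 4). For EE in ventral DG 41 were called, 87 by the likelihood ratio test, 75 by DESeq2, 78 with no filter, 26 with the TPM filter and 18 to 50 without 1 pool (18 without SH replicate 4, 24 without SH replicate 2, 26 without EE replicate 3). For the difference between regions 1 was called, and 0 with the TPM filter or without any 1 pool. With a replicate block (the replicate number for EE, the pool for the difference between regions) the counts were 172, 87 and 2, and it changed no call of a member. SH and EE samples of one number correlated by 0.082 to 0.175 (mean 0.126, against -0.031 for different numbers), and 5 of 8 correlated best with their own number. This is a hint of pairing from the data, with the lowest value under the limit of 0.1 set for pairing, and the labels do not tie the numbers to a shared batch or day. The cause of these changes was not tested.

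In TPM in place of CPM, the level as a percent of the mean of the 4 groups was 123.7 for *Maf* and 109.7 for *Mafg* and 104.3 for *Mafk* in dorsal SH, and 87.0 for *Maf* and 95.5 for *Mafg* in ventral EE. Of the 5 genes most like *Mafa*, 2 were shared with all 20 samples and 1 with log2(TPM + 1). *Maff* could not be fitted with the TPM filter, which it failed.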

Other observations

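Deviations of each sample from its group mean, which leave out region and housing, gave other genes among those most like *Mafa*, which included *Ermn* (r = 0.825), *Tspan2* (0.810) and *E330009J07Rik* (0.798), over 18 samples that share pools. *Ermn* and *Tspan2* are known from myelinating oligodendrocytes. The ventral samples held only 0 to 4 *Mafa* counts, so counting error is large in their deviations. Over the 9 dorsal samples alone, the first genes were others: *Ift81* (0.936), *Drc3*, *Sh3bgrl2*, *Cdc123* and *Gabpb2* (0.931). For *Maff* the genes most alike over the 18 samples were *Gm42517* (0.801), *Metrnl* (0.798), *Orai2* (0.795), *Gm527* (0.746) and *Jdp2* (0.742), the last a basic leucine zipper repressor of AP-1. For *Mafg* the first was *Bcl2* (0.951), for *Maf* *Slc35f3* and for *Mafk* *Gpr137* (0.894).

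In SH replicate 3, left out of the comparisons, *Mafa* had 68 dorsal counts and 1 ventral count, and *Maff* 10 dorsal and 12 ventral counts. The dorsal level of *Mafg* was 43.7 CPM and its ventral level 55.7 CPM, a pool log2 ratio of -0.35, which lay within the range of the EE pools.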
